A study of Mus musculus with 4 samples.

Results

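*Hand1* (ENSMUSG00000037335) and *Hand2* (ENSMUSG00000038193) were picked by their symbols in the gene lists of the 4 count tables. They are 2 of the 32285 mouse genes counted. The tables come from single-cell RNA sequencing of gastruloids, aggregates of mouse embryonic stem cells that form embryo-like cell types in culture. All 4 libraries were made from the wild type Zx1 line, with 1 library each from gastruloids aged 4, 5, 6 or 11 days, and each library pooled several gastruloids. By the study's methods the aggregates all received a pulse of the Wnt activator CHIR99021 before day 4, and bFGF, VEGF and ascorbic acid were added from day 4 to day 7. The question followed here was when, in which cells and beside which other genes the *Hand* genes were found.

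With 1 library per day there is no replicate, so no test was made, and every interval is a 95% interval that covers counting error only. Kept cells numbered 6555, 6457, 5255 and 7855 from the youngest to the oldest library, and their median depth ran from 11435 UMIs, at day 11, to 28171, at day 5. A UMI marks 1 captured RNA molecule. Levels are given in CPM, here counts per 1000000 UMIs and not cardiopharyngeal mesoderm. The UMIs come from 3' ends, so CPM was not divided by gene length, and levels of different genes are set side by side without correction for capture. Between 5 and 23 cell barcodes were shared by any pair of libraries. Fewer cells with a gene and less RNA per cell cannot be told apart in a level over a whole library, and shares of cells are therefore given beside levels.

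Both genes encode basic helix-loop-helix transcription factors, which bind DNA in pairs with E proteins such as those encoded by *Tcf3*, *Tcf4* and *Tcf12*, while the Id proteins take E proteins out of such pairs. *Hand1* is known from extraembryonic mesoderm, trophoblast, the lateral mesoderm at the edge of the heart field and the left ventricle. *Hand2* is known from the second heart field and right ventricle, the pharyngeal arches, the limb buds and sympathetic neurons. In GENCODE vM21, on the mm10 build that the submitters' processing notes name, *Hand1* lies at chr11:57828705-57832818 on the minus strand and *Hand2* at chr8:57320983-57324633 on the plus strand. *Hand2os1* (ENSMUSG00000100510), a long noncoding RNA gene, lies at chr8:57281117-57324233 on the opposite strand to *Hand2*, and 461 of the 2351 exonic bases of *Hand2* also lie in its exons. Whether counting used the strand is not given in the sources used here, so reads from the shared bases may not be told apart.

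The 2 annotations differ here, since in RefSeq *Hand2os1* and *Hand2* do not overlap. The RefSeq start of *Hand2os1* lies 124 bases from that of *Hand2*, on the other strand. The sequence before *Hand2* is shown because the levels of the 2 genes ran together in these cells. It covers chr8:57320733-57320982 (GRCm38.p6, plus strand, from RefSeq), the 250 bases that end at the base before the *Hand2* start, with the letters GATAA, searched on both strands, in capitals.
*Hand2* upstream: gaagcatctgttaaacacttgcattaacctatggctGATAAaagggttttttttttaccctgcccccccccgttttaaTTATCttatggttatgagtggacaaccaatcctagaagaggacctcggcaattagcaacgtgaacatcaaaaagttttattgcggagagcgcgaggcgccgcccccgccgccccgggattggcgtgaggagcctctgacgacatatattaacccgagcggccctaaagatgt
GATAA holds the core letters that GATA factors bind, and the window holds 2 matches, starting 214 and 172 bases upstream. The same letters stand in 22.5% of the 32544 promoter windows of this length in the table. The letters CANNTG, the E-box that helix-loop-helix pairs bind, match 2 times, apart from the GATAA matches, and stand in 66.2% of the windows. A match of letters is a description of the sequence and not a binding site.

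*Hand1* was the more abundant of the pair at days 4 and 5 and nearly gone at day 11, whereas *Hand2* peaked at day 6 and persisted. *Hand1* stood at 249 CPM (247 to 251) in the day 4 library, 217 and 85.3 CPM on the next 2 days, and 5.42 (5.01 to 5.87) by day 11. From day 4 to day 5 it was 0.872 times as high (0.860 to 0.883). It was then 2.55-fold lower at day 6 than at day 5 (2.50 to 2.60) and a further 15.7-fold lower at day 11 than at day 6 (14.5 to 17.1). *Hand2* measured 60.3, 59.7, 141 and 61.5 CPM in the same order. Its ratio of day 5 to day 4 was 0.991, with an interval of 0.965 to 1.02 that includes no difference. It was 2.35-fold higher at day 6 than at day 5 (2.30 to 2.41), and 2.29-fold lower at day 11 than at day 6 (2.23 to 2.35). Of all genes with 10 CPM or more on either day, 5.68% were at least 2-fold higher at day 6 than at day 5, as *Hand2* was, and 1.8% were at least 2-fold lower, as *Hand1* was. From day 6 to day 11, 1.64% of genes were at least 2-fold lower, both *Hand* genes among them.

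The balance of the 2 genes turned between day 5 and day 6. *Hand2* made up 19.5% of all *Hand1* and *Hand2* UMIs at day 4 (19.2% to 19.8%) and 21.6% at day 5. It made up 62.2% at day 6 and 91.9% at day 11 (91.2% to 92.5%). *Hand2os1* followed *Hand2* with 22.3, 28.3, 86.2 and 42.2 CPM on the 4 days. Its ratio of day 6 to day 5, 3.04 (2.95 to 3.14), was above that of *Hand2*, and its ratio of day 5 to day 4, 1.27 (1.22 to 1.32), was too.

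**Figure D1:**
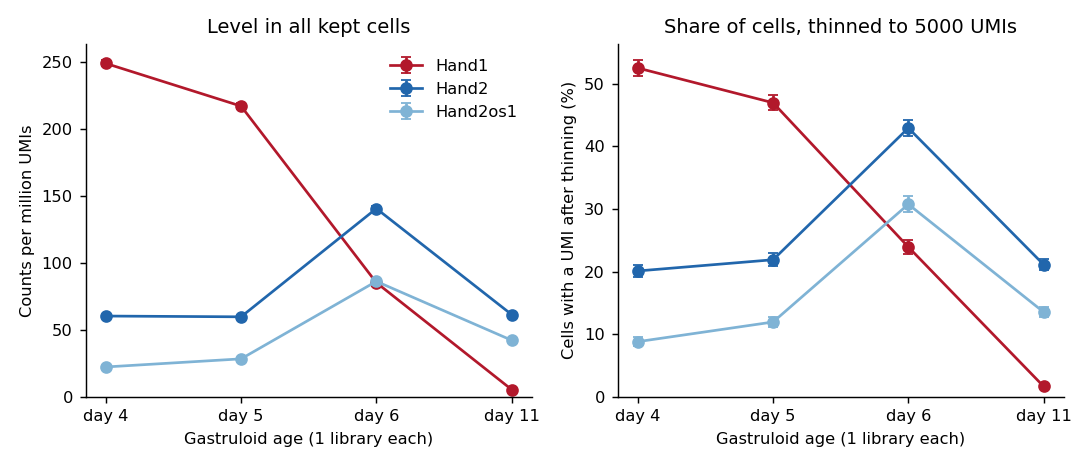
Left, CPM of *Hand1*, *Hand2* and *Hand2os1* in all kept cells of each library; right, percent of cells with a UMI after thinning every cell to 5000 UMIs. Points are 1 library each, bars are 95% counting intervals, and the days are evenly spaced on the axis; the red *Hand1* line falls below the blue *Hand2* line between day 5 and day 6.

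The share of cells with a UMI moved the same way. A cell counts as positive with at least 1 UMI, and since this share rises with depth, cells were also thinned at random to 5000 UMIs. That left out no cell at days 4 and 5, 11 at day 6 and 318 at day 11. After thinning, *Hand1* was found in 52.5%, 46.9%, 23.9% and 1.66% of cells on the 4 days, and *Hand2* in 20.1%, 21.9%, 42.9% and 21.1%. Without thinning the day 4 shares were 75.2% for *Hand1* and 48.5% for *Hand2*. Endoderm-like cells, a type not known for either gene, gave thinned *Hand1* shares of 4.04%, 8.68% and 1.05% on the first 3 days sampled, at median depths of 24112, 28711 and 34645 UMIs. Their *Hand2* shares were 0.449%, 1.24% and 1.05%. At day 11, where only 40 endoderm-like cells were kept, neural ectoderm-like cells serve in their place, with a *Hand2* share of 1.26% of 988 cells at a median of 10609 UMIs. Shares at or below these are read as background. The endoderm-like shares come from 445, 645 and 95 cells at days 4, 5 and 6, so this line is rough. The group levels below were not sorted by it.

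The level per cell was spread unevenly. At day 4 the median cell held 4 *Hand1* UMIs and the highest held 71, and 28.3% of cells held 10 or more. At day 6 the median cell held none and the highest 63, so that the 526 cells with most *Hand1* held 61.9% of its UMIs. At day 11 the highest cell held 22 *Hand1* UMIs, and 0.0764% of cells reached 10. For *Hand2* the highest cells of the 4 libraries held 28, 22, 41 and 24 UMIs, with a median of 3 per cell at day 6. The tenth of cells with most *Hand2* held 49.5% of its UMIs at day 4 and 42.8% at day 5, above the 40.05% and 39.1% for *Hand1*, and 35.7% at day 6, below the *Hand1* value.

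Sorting the thinned cells by both genes shows the same turn. At day 4, 38.0% of cells held only *Hand1*, 5.61% only *Hand2*, 14.5% both and 41.9% neither. Day 5 was alike, with 31.9%, 6.84%, 15.04% and 46.2%. At day 6 only 7.59% held *Hand1* alone, while 26.6% held *Hand2* alone and 16.3% both. At day 11, 0.862% held *Hand1* alone, 20.3% *Hand2* alone and 0.796% both, 60 cells of 7537. Unthinned, the cells with both were 46.0%, 48.6%, 37.3% and 2.98% of their libraries, which shows how strongly the class depends on depth.

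*Hand2* was found more often in cells that held *Hand1*. After thinning, 27.6% of *Hand1*-positive cells had a *Hand2* UMI at day 4 (26.1% to 29.1%) against 11.8% of *Hand1*-negative cells (10.7% to 13.0%). The pair was 32.0% against 12.9% at day 5 and 68.3% against 34.9% at day 6. By day 11 it was 48.0% (39.0% to 57.1%) against 20.7%. Unthinned, the pairs were 61.2% against 9.89%, 69.4% against 18.5%, 93.7% against 50.4% and 77.0% against 35.6%. Read the other way, 72.1% of *Hand2*-positive cells held *Hand1* at day 4 and 3.77% did at day 11.

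At days 4 to 6 most of the excess of such cells over a library-wide product of shares was also given by products within cell groups. At day 4, 949 thinned cells held both. The product of the 2 shares over the whole library would give 691 such cells, and the same product taken inside each cell group and summed gives 928. At day 5 the values were 971 cells found, 663 over the library and 909 within groups. At day 6 they were 856, 538 and 784, and at day 11 they were 60, 26.4 and 43.6. Among groups with at least 20 *Hand1*-positive and 20 *Hand1*-negative cells, the *Hand2* share was higher in the *Hand1*-positive cells in 3 of 8 groups of day 4 and 10 of 12 of day 5, then in 9 of 10 of day 6 and 2 of 2 of day 11. The *Hand2* share is also given by the number of *Hand1* UMIs in a cell. At day 6 it was 34.9% with no *Hand1* UMI, 65.1% with 1, 68.3% with 2 and 73.5% with 3 or more. At day 4 it was 11.8%, 23.9%, 29.6% and 30.6%, where the intervals with 2 (26.6% to 32.6%) and with 3 or more (27.9% to 33.3%) overlap. At day 5 it was 34.6% with 2 and 34.3% with 3 or more, so it rose no further there.

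**Figure D2:**
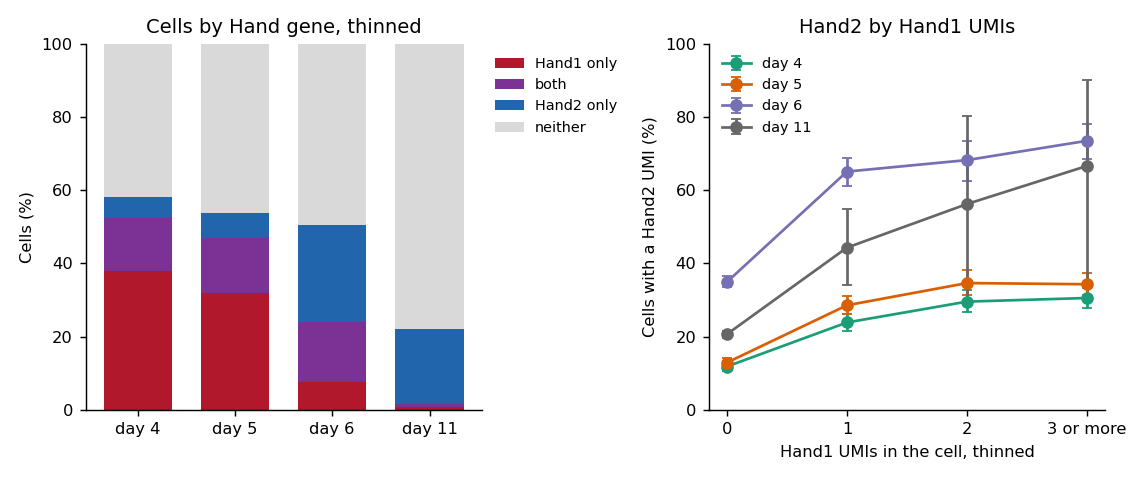
Left, stacked percent of thinned cells with only *Hand1*, both genes, only *Hand2* or neither on each day; right, percent of cells with a *Hand2* UMI (vertical, with 95% counting intervals) by the number of *Hand1* UMIs in the same cell (horizontal), 1 line per day. The red part of the bar shrinks from 38.0% at day 4 to 0.862% at day 11, and each line climbs most between 0 and 1 *Hand1* UMI.

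To see which cells carried the genes, the cells of each day were clustered without *Hand1*, *Hand2* and *Hand2os1* among the variable genes, which gave 14, 15, 20 and 27 groups. A group has a name ending in "like" only where fixed markers are raised in it, and otherwise goes by its leading genes. At day 4 *Hand1* was highest in group 2, led by *Ahnak*, *Stard8* and *Krt18*, at 553 CPM (545 to 561). These 889 cells held 37.2% of all *Hand1* UMIs, and *Hand2* stood at 84.1 CPM in them. *Hand2* was highest in group 3, led by *Twist1*, *Prrx2* and *Gata6*, at 139 CPM (134 to 143), and these 782 cells held 32.8% of all *Hand2* UMIs with *Hand1* at 322 CPM. The 914 cells of streak-like group 1, led by *Eomes*, *Myl7* and *Vstm2b*, had 257 CPM of *Hand1* and 84.0 of *Hand2*. The name rests on 4 of 8 streak markers, *Mixl1*, *Wnt3*, *Eomes* and *Cyp26a1*, and *T* was not among those raised.

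Some day 4 groups carried *Hand1* with little *Hand2*. In group 5, led by *Rspo3*, *Cited1* and *Hoxaas3*, *Hand1* measured 143 CPM and *Hand2* 5.96 CPM (4.79 to 7.34). This group went unnamed by the rule, though 4 of 9 somitic mesoderm markers were raised in it, *Tbx6*, *Dll1*, *Dll3* and *Hes7*. In group 7, led by *Ptgds*, *Anxa2* and *Mesp1*, the gene of the earliest cardiac mesoderm, the levels were 211 and 21.0 CPM. The smaller streak-like group 9, 407 cells led by *T*, *Lefty1* and *Fst*, had 43.2 CPM of *Hand1* and 1.40 of *Hand2*, unlike streak-like group 1. Its raised streak markers, *T*, *Fgf8*, *Wnt3a* and *Nkx1-2*, were all others than those of group 1. Both genes were low in epiblast-like cells (13.3 and 1.39 CPM), neural ectoderm-like cells (11.7 and 4.81 CPM) and endoderm-like cells (10.0 and 0.835 CPM). The endoderm-like *Hand1* level was 0.0374 of that in all other cells (0.0315 to 0.0441).

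At day 5 group 4, led by *Hist1h2ap*, *Rnd2* and *Pmp22*, had the highest *Hand1* level at 376 CPM (368 to 385). Groups 1, 2, 3 and 10 followed at 302 to 352 CPM, several of them led by cell cycle or histone genes. *Hand2* was highest in group 1, led by *Lgals1*, *Twist1* and *Pmp22*, at 107 CPM (103 to 111), ahead of group 3 at 98.7 CPM. Endothelium-like cells, group 8, led by *Ctla2a*, *Kdr* and *Ramp2*, held 52.9 CPM of *Hand1* and 21.1 of *Hand2*, so *Hand1* was still the larger of the pair there. Group 12, led by *Hoxaas3*, *Fgf8* and *Hoxc8*, again held *Hand1* (60.3 CPM) with little *Hand2* (2.22 CPM).

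As on the earlier days, the highest levels of the 2 genes lay in different groups at day 6. *Hand1* reached 308 CPM (297 to 321) in group 8, 360 cells led by *Phlda2*, *Col3a1* and *Hsd11b2*, in which *Hand2* was 243 CPM. *Hand2* reached 411 CPM (397 to 426) in group 4, 396 cells led by *Rgs5*, *Rgs4* and *Armh4*, in which *Hand1* was 100 CPM. Group 5, led by *Sfrp5*, *Shox2* and *Alcam*, had 289 CPM of *Hand2* and 133 of *Hand1*. Mesenchyme-like group 1 had 248 CPM of *Hand2* and 188 of *Hand1*. Of the 20 groups, 11 held *Hand2* at 50 CPM or more and 10 held *Hand1* at that level.

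Cardiomyocyte-like cells at day 6 came in 2 unequal groups. Group 12, 311 cells led by *Actc1*, *Tnnc1* and *Myl7*, had 116 CPM of *Hand1* (108 to 124) and 221 CPM of *Hand2*. Group 18, 31 cells led by *Myl2*, *Cck* and *Myl3*, had 11.6 CPM of *Hand1* (5.99 to 20.3) and 98.6 CPM of *Hand2* (80.4 to 120). Endothelium-like cells now held 4.61 CPM of *Hand1* (3.54 to 5.89) against 65.5 CPM of *Hand2*. Somitic mesoderm-like cells had 24.9 and 39.4 CPM, neural ectoderm-like cells 1.74 and 5.22 CPM and neural crest-like cells, 34 in number, 0.754 and 10.6 CPM. The endothelium-like *Hand1* level was 0.0494 of that in all other day 6 cells (0.0379 to 0.0632), and the *Hand2* level 0.442 (0.413 to 0.473).

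**Figure D3:**
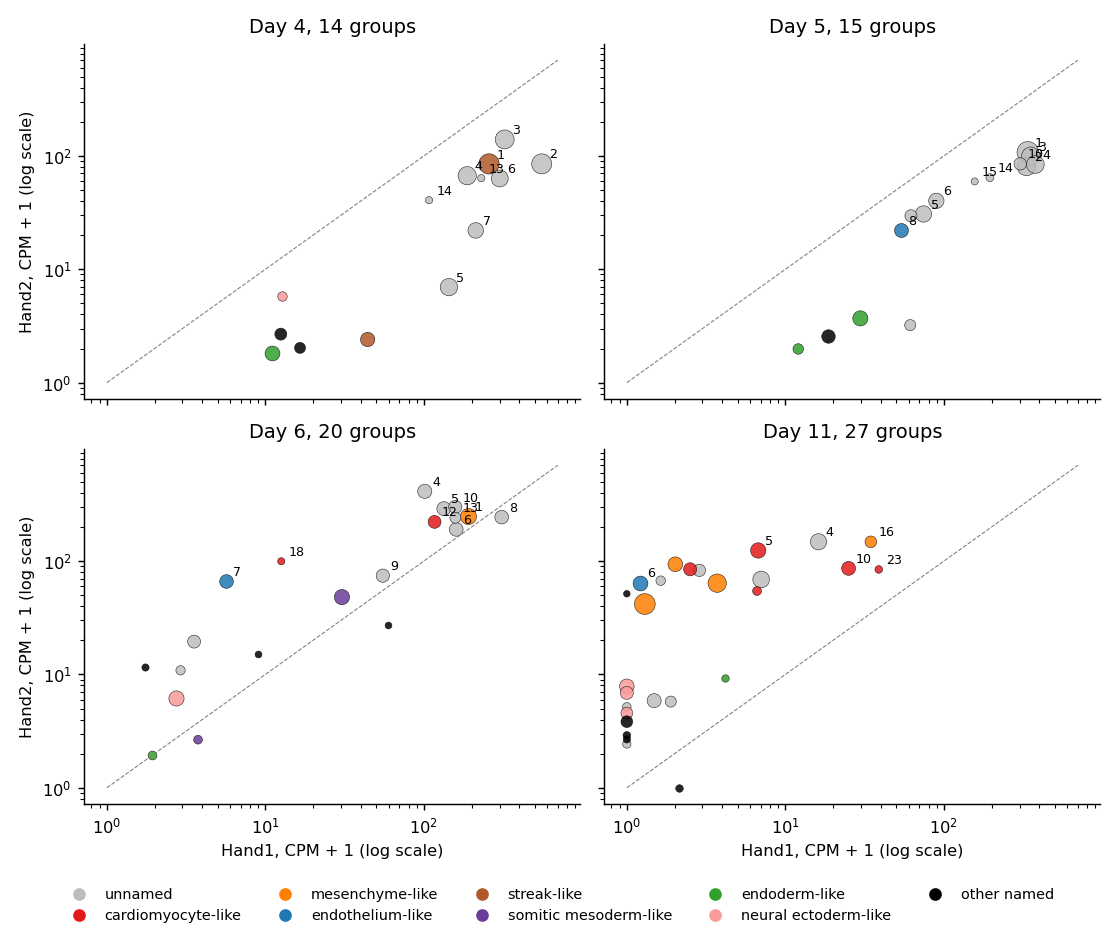
*Hand1* (horizontal) against *Hand2* (vertical) in each cell group of a day, both as CPM plus 1 on log axes; circles grow with the number of cells, colours give the cell type name, numbers mark groups with 100 CPM or more of the 2 genes together and the endothelium-like groups, and the dashed line marks equal values. All day 4 and day 5 groups lie below the line, and at day 6 group 8 is the only numbered group below it.

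At day 11 *Hand1* was left mainly in a few groups. Cardiomyocyte-like group 10, 379 cells led by the ventricular myosin genes *Myl2*, *Myh7* and *Myl3*, had 24.1 CPM (20.8 to 27.6) and 32.2% of all *Hand1* UMIs, with a *Hand1* UMI in 114 cells. The cycling cardiomyocyte-like group 23, 48 cells led by *Calca*, *Ube2c* and *Cdkn3*, had 37.8 CPM (28.8 to 48.8). Mesenchyme-like group 16, 239 cells led by *Foxf1*, *Cd55* and *Actr3b*, had 33.6 CPM (27.3 to 40.9) and 16.2% of *Hand1* UMIs in 26 positive cells. Group 4, led by *Tac2*, *Ndufa4l2* and *Tmem45a*, followed with 15.2 CPM and 15.3% of *Hand1* UMIs. The intervals of groups 23 and 16 overlap, as do those of groups 16 and 10.

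The other cardiomyocyte-like groups of day 11 held little *Hand1*. It was 5.74 CPM (4.30 to 7.51) in group 5, led by *Acta2*, *Vsnl1* and *Pnmt*, and 1.51 CPM (0.779 to 2.63) in group 11, led by *Nppa*, *Casq1* and *Sln*. *Hand2* in contrast was present in each of these groups, at 123 CPM (116 to 130) in group 5, 85.2 CPM (79.0 to 91.7) in group 10, 83.6 CPM (77.4 to 90.2) in group 11 and 83.3 CPM (69.6 to 99.0) in group 23. The last 3 levels have overlapping intervals. Group 19, 97 cardiomyocyte-like cells with a median of only 3157 UMIs, gave 53.4 CPM of *Hand2*. In all cardiomyocyte-like cells *Hand1* was 3.50 times (2.98 to 4.11) and *Hand2* 1.93 times (1.84 to 2.03) as high as in the other cells.

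Outside the heart muscle cells *Hand2* was found in many but not all groups at day 11. The highest levels were 147 CPM (137 to 157) in group 4 and 147 CPM (133 to 161) in *Foxf1*-led group 16, which do not differ beyond counting error. Mesenchyme-like groups 7, 2 and 1 had 92.7, 62.8 and 40.8 CPM. Unnamed group 9, 387 cells led by *Cxcl14*, *2700069I18Rik* and *Lix1*, had only 4.87 CPM. Unnamed group 17, 205 cells led by *Lix1*, *Prrx1* and *Lhx9*, had 4.76 CPM. Endothelium-like cells had 63.3 CPM (58.3 to 68.7), close to the 61.3 CPM of all other cells, with a ratio of 1.03 (0.948 to 1.12), and held 2 *Hand1* UMIs in 444 cells, 0.215 CPM (0.0260 to 0.776). Neural ectoderm-like cells had 6.00 CPM of *Hand2* and skeletal myoblast-like cells 2.68 CPM (1.56 to 4.29). *Hand1* had no UMI in the 988 neural ectoderm-like cells, with an upper limit of 0.2765 CPM, nor in the 292 skeletal myoblast-like cells, with an upper limit of 0.5812 CPM. In the 46 neural crest-like cells *Hand2*, which sympathetic neurons of crest origin are known to use, had no UMI, with an upper limit of 4.219 CPM.

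**Figure D4:**
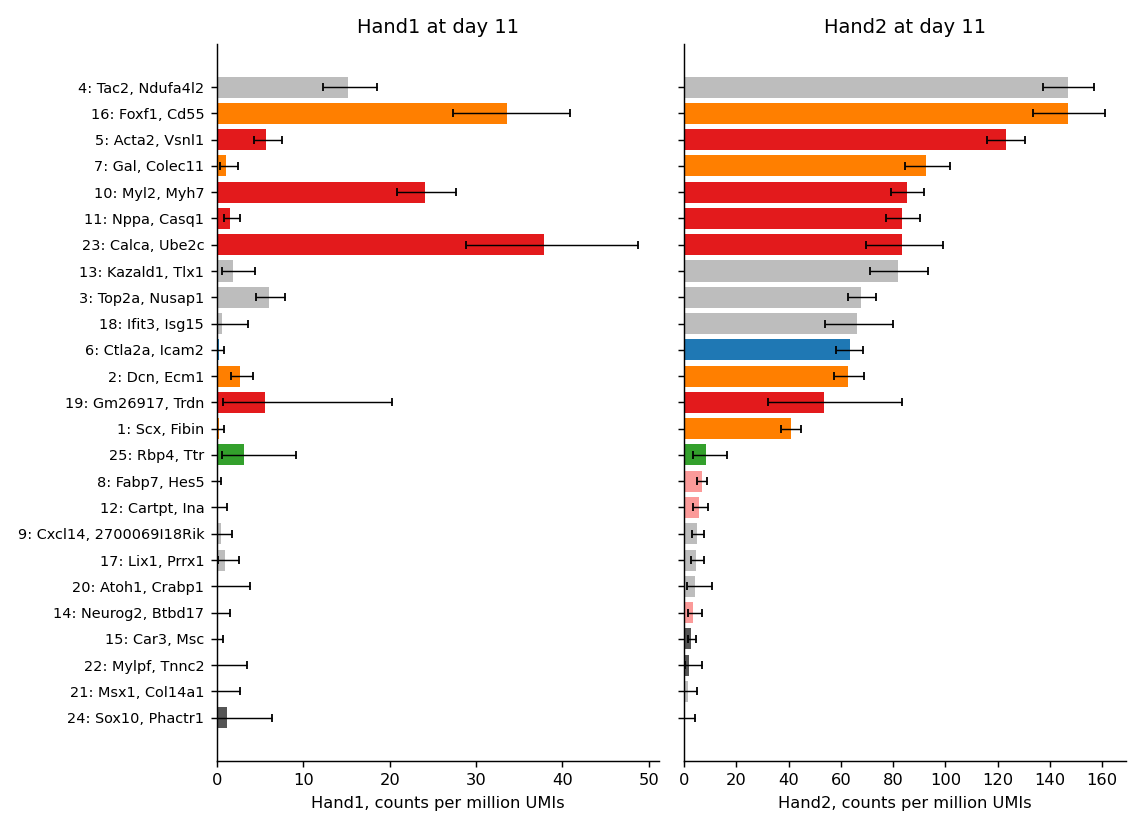
*Hand1* (left) and *Hand2* (right) in CPM in each day 11 group of at least 40 cells, labelled by group number and its first 2 leading genes and ordered by *Hand2*; bars carry 95% counting intervals and the panels have different scales. Red bars are cardiomyocyte-like, orange mesenchyme-like, blue endothelium-like, green endoderm-like, pink neural ectoderm-like, light grey unnamed and dark grey other named groups; *Hand2* is above 40 CPM in every red, orange and blue bar, and *Hand1* is above 20 CPM in groups 10, 16 and 23.

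The genes found beside *Hand1* were then sought by comparing the summed UMIs of thinned *Hand1*-positive and *Hand1*-negative cells. The ratio given is that of CPM plus 10, for genes with 10 CPM or more in either class, and a gene counts as apart at a ratio of 2. Negative cells by this rule still hold undrawn *Hand* UMIs, and the part of this in the size of the ratios was not tested. At day 4, 16 genes were at least 2-fold higher in *Hand1*-positive cells, 0.213% of those compared, and 1.04% were at least 2-fold lower. The 5 highest, among genes with 50 CPM or more in positive cells, were *Stard8* (69.5 against 20.1 CPM), *Pmp22* (149 against 53.5), *Foxf1* (75.0 against 24.1), *Msx2* (117 against 43.1) and *Asb4* (158 against 60.9). *Foxf1* and *Msx2* encode transcription factors of lateral and extraembryonic mesoderm. Of the list of juxtacardiac and extraembryonic mesoderm genes, 4 of 8 compared were at least 2-fold higher, *Ahnak* (48.5 against 9.44 CPM), *Foxf1*, *Msx2* and *Pmp22*, and the list's median ratio was 2.18 against 1.03 over all genes compared.

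At day 5 the leading genes beside *Hand1* were *Tmem108* (57.8 against 16.7 CPM), *Smarcd3* (58.8 against 17.3), which encodes a cardiac subunit of a chromatin remodelling complex, *Msx2* (93.4 against 32.0), the netrin receptor gene *Unc5c* (55.4 against 20.7) and *Arhgap29* (75.8 against 30.8). In all, 0.118% of genes were at least 2-fold higher and 0.929% at least 2-fold lower. *Ahnak*, *Msx2* and *Pmp22* made 3 of 8 juxtacardiac genes.

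At day 6 *Phlda2*, an imprinted growth gene, led beside *Hand1* with 141 CPM against 20.5, a ratio of 4.94. *Mab21l2*, a gene of the juxtacardiac field, had 102 against 20.5 CPM, *Pitx1*, a hindlimb factor gene, 51.4 against 7.56, the keratin gene *Krt8* 179 against 48.8 and *Ahnak* 80.5 against 20.5. Here 0.702% of genes were at least 2-fold higher, and 6 of 8 juxtacardiac genes were, the others named being *Foxf1*, *Msx1* and *Pmp22*. *Gata6* and *Tbx20* were the cardiac factors past 2-fold, 2 of 12, with *Gata6* at 314 against 125 CPM. The paraxial genes *Meox1*, *Tcf15* and *Pax3*, 3 of 5, were at least 2-fold lower in *Hand1*-positive cells, *Meox1* at 12.1 against 43.3 CPM, where 0.884% of all genes were that much lower.

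At day 11 ventricular genes were higher in the summed UMIs of the 125 thinned *Hand1*-positive cells. Only 40 of these cells lay in *Myl2*-led group 10 and 6 in group 23, so these groups held a minority of the class. Another 29 cells came from *Tac2*-led group 4 and 13 from *Foxf1*-led group 16. *Myh7*, which encodes the slow myosin heavy chain, had 1696 against 238 CPM, *Myl3* 3548 against 546, *Myl2*, the ventricular light chain gene, 2927 against 455 and *Pln*, the inhibitor of the calcium pump, 529 against 107. Of 7 ventricular genes 6 were at least 2-fold higher, with *Cited1* at 161 against 34.2 CPM, *Hey2* at 34.4 against 7.91 and *Irx4* at 20.3 against 5.00, and the list's median ratio was 3.87 against 0.933 over all genes compared. In all genes 1.26% were that much higher and 2.43% that much lower. Of the juxtacardiac list *Foxf1* (30.4 against 7.38 CPM), *Krt8* and *Pmp22* (153 against 61.7), 3 of 8, were at least 2-fold higher and *Msx1* was lower, with a median ratio of 1.80. The atrial and venous list was split, with *Nppa* higher (143 against 40.1 CPM) and *Nr2f1* lower (35.7 against 130). By the paper, *Nppa* is found in ventricle as well as atrium during development, so its level does not tell the 2 apart. The gene with the highest ratio, *Dcpp1*, rests on 1 cell, which held 331 of its 335 UMIs in *Hand1*-positive cells. Among cardiac factors *Nkx2-5*, *Isl1* and *Tbx20*, 3 of 12, were 2-fold or more higher.

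Beside *Hand2* the ratios of days 4 and 5 stayed under 2. No gene was at least 2-fold higher in *Hand2*-positive cells on these days, 0.0% of those compared, and 0.739% and 0.633% were at least 2-fold lower. *Twist1*, which encodes another helix-loop-helix factor, of early mesenchyme, had the highest ratio on both days, with 165 against 83.7 CPM at day 4 and 143 against 76.5 at day 5. *Stard8*, the growth factor gene *Igf2*, *Pmp22* and the VEGF receptor gene *Kdr* (82.2 against 45.0 CPM) came next at day 4. At day 5 *Tmem108*, *Smarcd3*, *Irx3* (54.3 against 27.6 CPM) and *Cttnbp2* came next. With cells classed by all their UMIs, genes at least 2-fold apart in either direction numbered 144 and 118 on these days, instead of 55 and 48.

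At day 6 cardiac factor genes were among those higher beside *Hand2*. *Rgs5* had 144 against 35.1 CPM, *Sfrp1*, a secreted Wnt antagonist gene, 268 against 79.6, *Gata6* 289 against 89.8, the slow skeletal and fetal cardiac troponin gene *Tnni1* 523 against 170 and the titin gene *Ttn* 658 against 217. Of 11 cardiac factors compared, 7 were at least 2-fold higher, *Gata4*, *Gata5* (83.9 against 23.3 CPM), *Gata6*, *Mef2c* (219 against 90.4), *Tbx5* (32.8 against 10.4), *Tbx20* and *Myocd* (24.0 against 5.60). The list's median ratio was 2.18 against 1.02 over all 8323 genes compared, of which 1.14% were at least 2-fold higher. Of the atrial and venous list *Shox2*, *Vsnl1* and *Myl4*, 3 of 6, were at least 2-fold higher, and of the BMP list *Bmp2*, *Bmp4* and *Bambi*, 3 of 13. The same 3 paraxial genes as for *Hand1* were at least 2-fold lower, with *Tcf15* at 3.38 against 29.0 CPM, where 0.865% of all genes were that much lower. The *Hand2*-positive cells of day 6 held 21564 UMIs at the median and the negative cells 27945, and the part of depth in these ratios was not tested.

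At day 11 *Ppp1r14c* (364 against 158 CPM), the predicted gene *Gm34030*, *Csrp3* (757 against 347), the alpha myosin heavy chain gene *Myh6* (1053 against 485) and the sinus node factor gene *Shox2* (175 against 76.8) led beside *Hand2*, and 0.209% of genes were at least 2-fold higher. *Shox2* and *Myl4* made 2 of 7 atrial and venous genes, and 0 of 6 ventricular genes reached 2-fold, with *Myl2* at 748 against 436 CPM. The median ratios of the 2 lists were close, 1.74 for the atrial and venous and 1.57 for the ventricular genes. Over all genes compared the median was 0.981, so both lists leaned towards *Hand2*-positive cells.

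**Figure D5:**
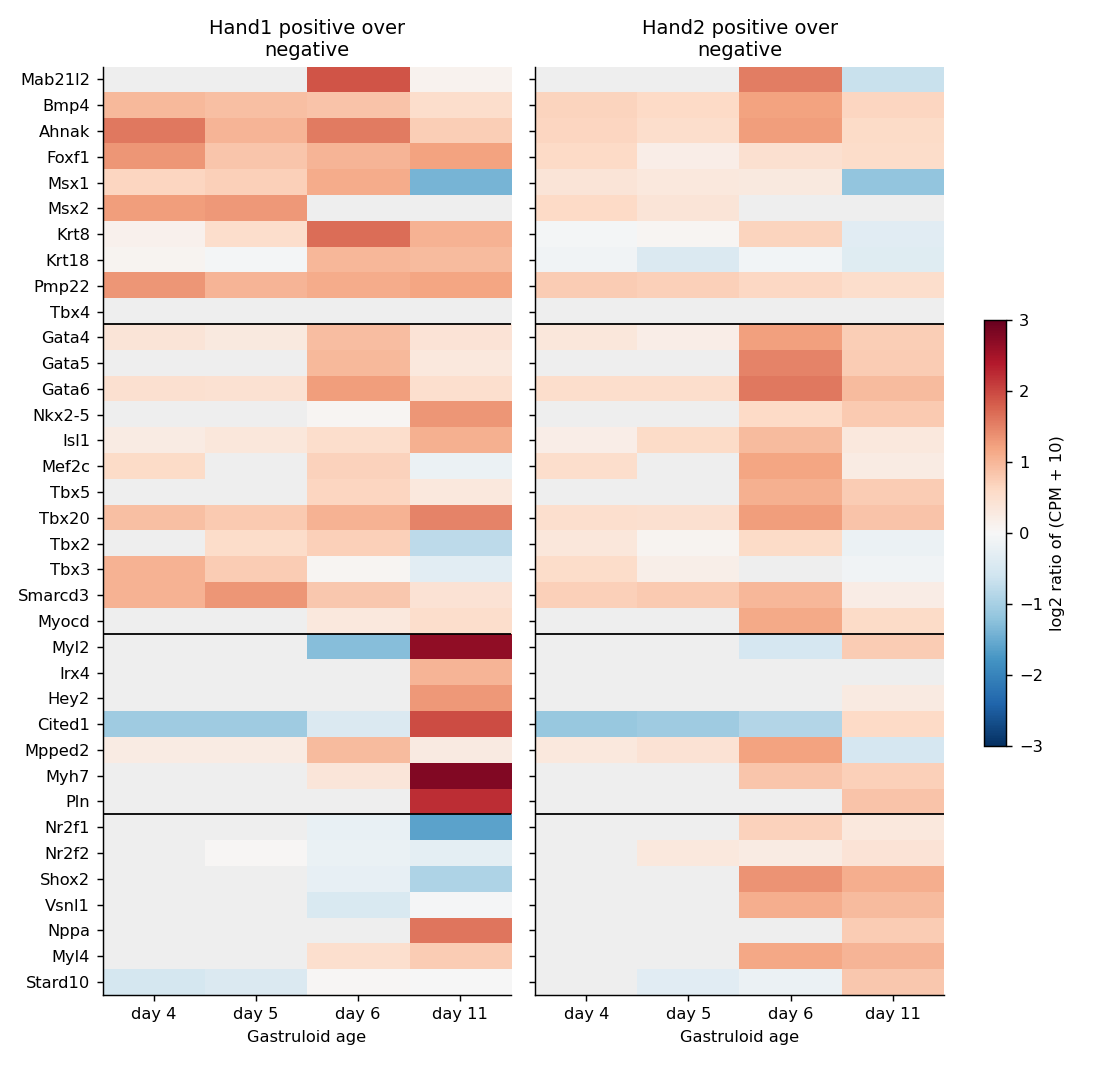
Log2 ratio of CPM plus 10 in cells positive over cells negative for *Hand1* (left) or *Hand2* (right), for genes of 4 lists separated by black lines (from the top, juxtacardiac and extraembryonic mesoderm, cardiac transcription factors, ventricular, atrial and venous cardiomyocyte) on each day; grey cells had under 10 CPM in both classes. Red marks genes higher in positive cells; the ventricular block is darkest for *Hand1* at day 11, and the cardiac factor block for *Hand2* at day 6.

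The remaining lists gave few genes apart. With shares over all genes between 0.0% and 1.26% higher and between 0.633% and 2.43% lower in these comparisons, a count of 0 in lists this short is near the background and no result about a list. Of helix-loop-helix partners and inhibitors, none of 7 or 8 reached 2-fold in either direction beside *Hand1* or *Hand2* at days 4 and 5, and *Tcf3* stood at 114 against 101 CPM beside *Hand1* at day 4. At day 6 *Twist1*, 1 of 9, was at least 2-fold higher beside *Hand2*, and at day 11 *Tcf4*, *Tcf12*, *Twist1* and *Id3*, 4 of 9, were 2-fold or more lower beside *Hand1*, where 2.43% of all genes were. Of the BMP list, 0 of 12 genes compared reached 2-fold beside either gene at days 4 and 5, and *Bambi* was the 1 of 13 that was higher beside *Hand1* at day 6. Of the arch and limb bud list, 0 of 3 to 5 genes compared were at least 2-fold higher in any of these comparisons, and *Prrx1* was lower beside *Hand1* at day 11 (19.8 against 122 CPM). The sympathetic list had at most 2 genes to compare; *Phox2a* was higher beside both genes at day 6 (33.1 against 5.40 CPM beside *Hand2*). No gene of the epicardial list, 0 to 4 compared, reached 2-fold. All 8 trophoblast genes stayed under 10 CPM on every day, among them *Elf5*, *Tpbpa* and *Prl3d1*. All 8 cell cycle genes stayed within 2-fold beside both genes on every day. Of the dissociation stress genes *Fos* was lower beside *Hand1* at day 11, at 114 against 239 CPM, and none was higher. *Fos* and *Egr1* were also at least 2-fold lower in *Hand1*-only than in *Hand2*-only cells at day 11, and the part of dissociation in these comparisons was not tested.

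Thinned cells with a UMI of only 1 of the genes were compared directly. Here a cell held a gene alone if thinning left no UMI of the other, so these cells are not free of the other gene. By all their UMIs, the day 4 *Hand2*-only cells had 170 CPM of *Hand1* and 150 of *Hand2*. The *Hand1*-only cells had 139 CPM of *Hand2* at day 6 and 57.6 at day 11. Without thinning, only 161 cells held *Hand2* alone at day 4 and 131 held *Hand1* alone at day 6. At day 4, 2492 cells held *Hand1* alone and 368 *Hand2* alone, and *Krt18* was the only gene of 7329 past 2-fold, 0.0136%, at 168 against 77.3 CPM. *Dppa5a*, *Krt8*, *Slc2a3* and *Fgf8* came next. At the other end stood *Prrx1* (27.2 against 57.7 CPM) and *Twist1* (105 against 194), both of early mesenchyme, then *Lhx1*, *Kdr* and *Mest*. At day 5, 2 genes were past 2-fold in each direction, 0.0268% of those compared, and *Msx2* (93.1 against 40.5 CPM), *Krt18*, *Tbx3*, *Krt8* and *Phlda2* were highest in *Hand1*-only cells. The endothelial gene *Ctla2a* was lowest, at 8.16 against 54.8 CPM, followed by *Twist1*, *Vamp8*, *Phlda1* and *Irx3*.

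At day 6 the 398 *Hand1*-only cells had 142 CPM of *Phlda2* against 26.9 in the 1394 *Hand2*-only cells, 51.9 against 9.44 of *Pitx1*, 94.6 against 26.5 of *Krt18*, 183 against 58.3 of *Krt8* and 119 against 47.9 of *Ifitm1*. Lower were *Ctla2a* (17.01 against 60.9 CPM), *Vsnl1* (16.2 against 56.2), *Angpt1*, *Sphkap* and *Nr2f1* (76.7 against 170). Genes at least 2-fold higher and lower were 0.111% and 0.16% of those compared. Of the atrial and venous list *Nr2f1*, *Shox2* and *Vsnl1*, 3 of 6, were at least 2-fold lower in *Hand1*-only cells, and of the juxtacardiac list *Msx1*, *Krt8* and *Krt18*, 3 of 8, were at least 2-fold higher. The cardiac factors had a median ratio of 0.832 with 0 of 11 past 2-fold.

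At day 11 only 65 thinned cells held *Hand1* alone, against 1531 with *Hand2* alone. *Myl2* (3721 against 687 CPM), *Myh7* (1705 against 327), *Myl3* and *Pln* were higher in them, and 5 of 7 ventricular genes were at least 2-fold higher where 0.505% of all genes were. *Dcpp1*, highest by ratio, again rests on the cell named above. *Ctla2a* (1.69 against 139 CPM), the sarcoplasmic regulator gene *Sln* (1.69 against 88.9), *Gal*, *Calca* and *Tagln2* were lowest, and 1.58% of genes were at least 2-fold lower. *Shox2* stood at 50.8 against 181 CPM and *Nr2f1* at 34.7 against 158. Both sets of cells had *Nkx2-5*, at 106 CPM with *Hand1* alone and 59.7 with *Hand2* alone.

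When comparison was kept to groups with at least 50 CPM of the 2 genes together, genes at least 2-fold apart beside *Hand1* numbered 10 at day 4, instead of 94, and 23 at day 5, instead of 80. Beside *Hand2* they numbered 5 on both days, instead of 55 and 48. At day 6 they numbered 88 beside *Hand1*, instead of 131, and 78 beside *Hand2*, instead of 167. At day 11 they numbered 168 beside *Hand1*, instead of 320, and 10 beside *Hand2*, instead of 139.

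Across all 76 groups of the 4 days, the likeness of each gene to *Hand1* and *Hand2* was measured as Pearson's r of log2(CPM + 10). The groups share libraries and depth, so r is a description. Most like *Hand1*, of 7074 genes, were *Dok4* (r = 0.848), *Prdm6* (0.796), *Prtg* (0.776), *Phlda2* (0.757) and *Tmem88* (0.747). *Dok4* and *Prdm6* also ran with *Hand2*, at 0.708 and 0.631, while *Phlda2* did not, at 0.0636. Most like *Hand2* were the noncoding *5033428I22Rik* (0.847), *Gm34030* (0.833), *Gata6* (0.825), *Rgs5* (0.825) and *Asb4* (0.822). *Hand2os1* had a higher r to *Hand2*, 0.944, and 0.460 to *Hand1*. The r of *Hand1* and *Hand2* was 0.559 over all groups, but 0.883, 0.945 and 0.892 within days 4, 5 and 6, over 14, 15 and 20 groups, and 0.600 over the 27 groups of day 11.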

How the data were processed

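Single cells of wild type Zx1 gastruloids were profiled with a 10x 3' kit, 1 library per day. The authors deposited raw UMI counts per gene and cell, not normalized; the submitters' processing notes name Cell Ranger 3.1.0 and mm10, while the day 11 matrix header gives software 6.0.1. CPM, percentages and ratios are derived here from those deposited counts. Libraries held 149169498 to 236714826 UMIs. Cells were kept with more than 200 genes, under 20% mitochondrial and over 5% ribosomal protein UMIs, and log10 depth within 3 scaled median absolute deviations; the top 8% by doublet score were dropped. Clustering used 2000 variable genes without *Hand1*, *Hand2* and *Hand2os1*, 30 principal components, 20 neighbours and Leiden at resolution 1 (leidenalg 0.10.2). A name needed at least 3 markers of a class, more than of any other class, raised 2-fold and found in at least 10% of the cells. It was withheld where the 10 leading genes held at least as many markers of another class, and at least 1. It was also withheld in shallow groups with no marker of the class among them. Intervals are exact Poisson, Clopper-Pearson or conditional binomial (scipy 1.17.1), and scripts were tested on simulated counts. Named genes are the members, *Hand2os1*, the list genes, the 5 most alike over groups and the leading genes of groups. To these come the 5 genes with the highest ratio in each comparison, with at least 50 CPM in the higher class. The 5 lowest were taken only for *Hand1*-only against *Hand2*-only cells, so genes lower in positive cells are named only from the lists. The members, lists, markers and naming rule were chosen with earlier results of these data known. The labels do not say whether further cultures were made.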

Additional observations from a re-analysis of the deposited data

Results flagged for a closer look

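A few list genes were at least 2-fold higher in *Hand1*-positive cells on one day and at least 2-fold lower on another, by the ratio of CPM plus 10. The difference between days was not tested, since each day has 1 library. *Cited1* had ratios of 0.476 at day 4 and 0.477 at day 5 but 3.87 at day 11. *Msx1* had 2.15 at day 6 and 0.379 at day 11. *Myl2* had 0.413 at day 6 and 6.32 at day 11; at day 6 it led the 31 cells of cardiomyocyte-like group 18, with 11.6 CPM of *Hand1*, and at day 11 the 379 cells of group 10, with 24.1 CPM.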

How the results depend on the processing

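No paired analysis was possible because there is 1 library per day. With median-of-ratios size factors *Hand1* was 286, 227, 80.6 and 4.79 CPM on days 4, 5, 6 and 11 and *Hand2* 69.2, 62.4, 133 and 54.3. As a mean over cells *Hand1* was 236, 208, 102 and 4.75, and *Hand2* moved to 54.4 at day 4 and 172 at day 6. With every cell of more than 200 genes *Hand1* was 246, 213 and 83.4 at days 4, 5 and 6, and *Hand2* 135 at day 6; with doublets left in, *Hand1* was 246 at day 4 and *Hand2* 138 at day 6. The order of the days stayed the same for *Hand1* under all 4 settings. For *Hand2* it did not. With size factors day 11 was lowest, at 54.3, below day 5 at 62.4 and day 4 at 69.2. In the main analysis day 5 was lowest, at 59.7, with day 4 at 60.3 and day 11 at 61.5, all with overlapping intervals. As a mean over cells day 4 fell to 54.4.

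Cells with both genes, in percent at days 4, 5, 6 and 11, were 2.04, 2.40, 5.03 and 0.0663 with at least 2 UMIs, 7.70, 7.84, 9.88 and 0.389 thinned to 3000 UMIs, and 27.4, 27.7, 26.9 and 2.05 thinned to 10000. The *Hand2* share of *Hand1*-positive cells was 6.56, 8.68, 40.5 and 17.9, then 18.6, 21.4, 55.0 and 30.6, then 42.1, 47.4, 85.8 and 59.5 under the same settings, and 65.0 at day 6 with doublets left in. The highest group level of *Hand1* was 442, 349 and 294 CPM at days 4 to 6 with Leiden resolution 0.5, 631 and 386 at days 4 and 5 with 1.5, and 395 at day 5 with the *Hand* genes among the variable genes. That of *Hand2* was 109, 98.6, 293 and 110 with 0.5, 158 and 138 at days 4 and 5 with 1.5, and 146 and 129 with the *Hand* genes kept.

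Genes at least 2-fold apart beside *Hand1* numbered 217, 205, 309 and 780 with a pseudocount of 1 CPM (94, 80, 131 and 320 with 10), 204 and 133 at days 4 and 5 with classes from all UMIs, and 168 at day 11 in groups with 50 CPM or more. Beside *Hand2* they numbered 118, 114, 400 and 330 with a pseudocount of 1 (55, 48, 167 and 139 with 10), 144, 118, 307 and 385 with all UMIs, and 78 and 10 at days 6 and 11 in those groups (10 and 23 beside *Hand1*, 5 and 5 beside *Hand2*, at days 4 and 5). Between *Hand1*-only and *Hand2*-only cells they numbered 11, 20, 76 and 574 with a pseudocount of 1 (1, 4, 22 and 177 with 10) and 10, 25 and 99 at days 4 to 6 with all UMIs. There they were 0 and 1 at days 4 and 5 with every cell, and 2 at day 5 with doublets left in. The log2 ratio of *Dcpp1* turned at day 11: beside *Hand1* it was -0.24 with every cell and -0.23 with doublets left in, and between *Hand1*-only and *Hand2*-only cells -0.88 with all UMIs and -0.68 with every cell. The cause of these changes was not tested. Day 11 depth limits what its shares can show.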
